A study of Saccharomyces cerevisiae with 7 samples.

Results

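The 5' untranslated region (5' UTR) is the stretch of an mRNA between its 5' end and the start codon. Members were the protein-coding genes, recognised by a systematic name that starts with Y, whose listed 5' UTR measured 150 nt or more in the transcript annotation of Saccharomyces cerevisiae that accompanies the series. They numbered 356 of the 2679 mRNAs with a listed 5' UTR (13.3%), out of 3000 mRNAs in all. The series probed the folding of polyA-selected RNA from log-phase yeast grown at 23 °C, refolded in vitro and cleaved either with RNase V1, which cuts paired bases (4 libraries), or with nuclease S1, which cuts unpaired bases (3 libraries). The labels differ on the RNA: the titles name total RNA, and the source, molecule and protocol fields name polyA RNA. No strain genotype is given in the labels used here. Cleavage values were not analysed here, the nucleases were not compared, library depth is unknown and none of the values below carries a replicate error. Genes were the unit throughout. Genes are not independent replicates, and the 95% intervals cover counting error over genes only.

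In yeast, the small ribosomal subunit binds near the cap of an mRNA and moves along the 5' UTR until it meets a start codon, usually the ATG nearest the 5' end. An ATG inside the 5' UTR can therefore be used before the main one, and the short upstream reading frame it opens can lower or regulate translation of the protein below. The 5' UTR also carries binding sites for proteins and, in a small number of yeast genes, an intron.

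GCN4, the activator of amino acid biosynthesis genes, is the textbook case of control by upstream reading frames, and its listed 5' UTR of 571 nt held 4 of them. They are shown as an example of sequence read by gene name from the reference. Reading 571 nt back from the GCN4 start codon returned all the frames that define this regulation and no other ATG. Any listed length of 361 nt or more would return the same frames, so the listed length itself is not checked by them. The sequences are from RefSeq, build R64, minus strand, at chr5:140110-140127, chr5:140045-140059, chr5:139925-139942 and chr5:139900-139917, and the capitals mark the frame from ATG to stop.
GCN4 frame 1: aaaATGGCTTGCTAAacc
GCN4 frame 2: attATGTGTTAAatt
GCN4 frame 3: atcATGTACCCGTAGaat
GCN4 frame 4: aagATGTTTCCGTAAcgg
Their ATGs lay 361, 293, 176 and 151 nt before the GCN4 start codon, and the 5' UTR between the last frame and the start codon held no ATG.

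CLN3, a G1 cyclin, and HOL1, a transporter of polyamines, are the other textbook members with a single known upstream frame. The 319 nt 5' UTR of CLN3 held 1 ATG, 315 nt before the start codon (R64, minus strand, chr1:67821-67838), which is close to its listed 5' end. The 241 nt 5' UTR of HOL1 held 1 ATG, 215 nt before the start codon (R64, minus strand, chr14:730378-730404). Capitals again mark the frame.
CLN3 frame 1: caaATGGATTTCTGAgga
HOL1 frame 1: ttcATGCTATTACTACCAAGTTGAcat
Both frames are short, and in both mRNAs the 5' UTR between the frame and the main start codon was free of further ATGs.

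VBA2, a vacuolar transporter of basic amino acids, carried the most ATGs (14) of the members without splice motifs. A few of its shortest frames, which lie side by side, are given from R64, plus strand, at chr2:786687-786701, chr2:786697-786708 and chr2:786706-786723, with the frame in capitals.
VBA2 frame 6: aaaATGCTTTAAaat
VBA2 frame 7: aaaATGTAGtaa
VBA2 frame 8: taaATGAAACATTAAttc
Their ATGs stood 316, 306 and 297 nt before the VBA2 start codon, all within the 489 nt 5' UTR.

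A second kind of member was marked by the letters of an intron. Yeast introns begin with a donor site, most often GTATGT, and hold the branch point TACTAAC. BMH2, a gene for a 14-3-3 protein, had the longest 5' UTR (827 nt), and RPS22B, which encodes a protein of the small ribosomal subunit, had 564 nt. The motifs are shown as examples, and in both the donor stood at the listed 5' end. The R64 positions are chr4:652775-652792 and chr4:653415-653433 for BMH2 and chr12:855872-855889 and chr12:856401-856419 for RPS22B, all on the plus strand, with the motif in capitals.
BMH2 donor: cgaaccGTATGTtttacc
BMH2 branch: ttcaatTACTAACttattt
RPS22B donor: caacaaGTATGTggacga
RPS22B branch: gtataaTACTAACgtttca
The donor motif lay 826 nt before the BMH2 start codon and 564 nt before that of RPS22B, which is within 1 nt of the listed length in each.

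The members' lengths, on which they were chosen, fell off steeply. Of the 356, 159 measured 150 to 199 nt, 121 measured 200 to 299 nt, 49 measured 300 to 399 nt, 18 measured 400 to 499 nt and 9 measured 500 nt or more. The median member had 207 nt (quartiles 175 and 271 nt), against 44 nt in the other 2323 mRNAs. Members made up 13.3% of the mRNAs and 41.4% of all listed 5' UTR bases (86506 of 209072 nt). There was no gap at the limit. At exactly 150 nt stood 9 mRNAs, PSA1, HRD1, RRP45, GDA1, MTQ1, YPS1, PML1, YML018C and MNT3, and at 151 nt another 5, among them the DNA repair factor RAD23. Just outside, the flap endonuclease RAD27, the GTPase RHO2 and NPT1 were 1 nt short of the limit, and PRS1, KAP95, TOS1, SSH1 and YGR017W were 2 nt short. Members were spread over both strands (175 plus, 181 minus) and over all 16 chromosomes, where their share ran from 5.41% on chromosome 1 to 19.8% on chromosome 5.

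**Figure D1:**
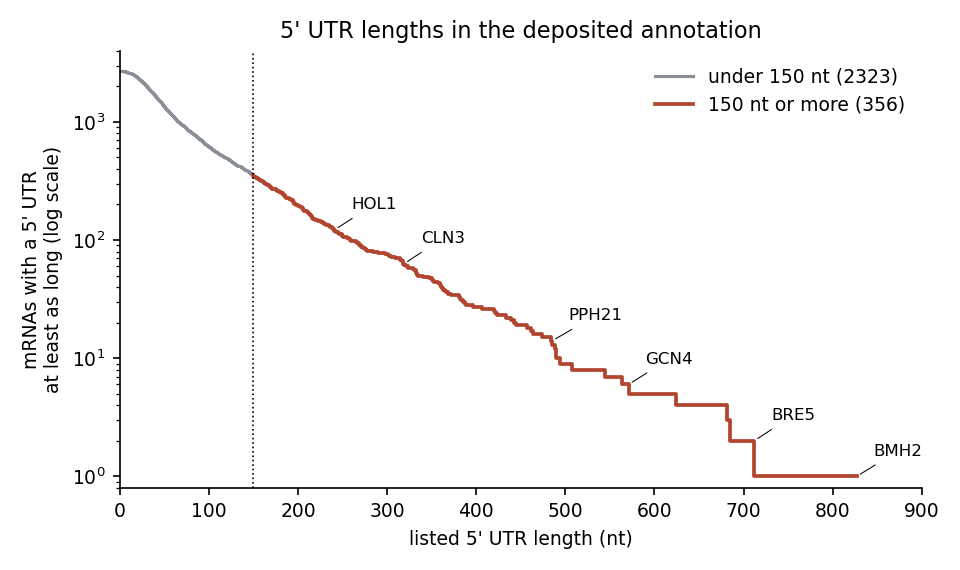
Number of mRNAs (y axis, log scale) whose listed 5' UTR is at least as long as the length on the x axis (nt), with the 356 members in red, the 2323 others in grey and a dotted line at the limit of 150 nt. The curve passes the limit without a step and ends in a thin tail from GCN4 (571 nt) to BRE5 (712 nt) and BMH2 (827 nt).

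The tail beyond the 5 longest mixed regulatory proteins, large biosynthetic enzymes and small ribosomal proteins. GCN4 was followed by RPS22B (564 nt), by ACC1, the acetyl-CoA carboxylase that begins fatty acid synthesis (545 nt, chromosome 14, 661377 to 661921), and by RSP5, an essential ubiquitin ligase (508 nt, chromosome 5, 409677 to 410184). Next came RPS29A (494 nt), RPL24A and the SUN family gene SIM1 (490 nt each), VBA2 (489 nt), PPH21, a catalytic subunit of protein phosphatase 2A (485 nt), and COX4, a subunit of cytochrome c oxidase (484 nt). These positions follow the deposited annotation, and its build is not stated in the texts used here.

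Some lists of regulators, such as cyclins, phosphatases, RNA-binding regulators and kinases, had the highest shares of long 5' UTRs. Those of transcription factors and small GTPases stood lower. Each of 15 gene lists was read against the 13.3% of all mRNAs. Since the lists are described with the length that chose the members, and with earlier results known, they carry no test. Shares are of the genes with a listed 5' UTR, which for some lists are fewer than those without, as for kinases (36 of 121 on the list) and transcription factors (33 of 141). Of the 48 cyclins and cell cycle regulators on the list 21 had a listed 5' UTR, and 10 of these were members (47.6%, 95% Wilson interval 28.3 to 67.6%). They included CLG1, a cyclin-like partner of Pho85 (464 nt), WHI4 and WHI3, RNA-binding proteins that restrain G1 cyclins (365 and 350 nt), and PHO80, the cyclin of the phosphate response (363 nt). The G1 cyclin gene CLN3 had 319 nt, and CLN1 and CLN2 had 194 and 183 nt. The cullin ligase that removes G1 regulators was there as well, with its scaffold CDC53 (302 nt), its substrate receptor CDC4 (179 nt) and its conjugating enzyme CDC34 (172 nt). These 3 genes are also on the list of ubiquitin enzymes, and WHI3 and WHI4 are also on that of RNA-binding regulators.

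Protein phosphatases and their partners had 14 members of 30 (46.7%, 30.2 to 63.9%). Besides PPH21 these were PTC1 (333 nt), PTC2 (304 nt) and PTC4 (176 nt) of the type 2C family, the MAP kinase phosphatase MSG5 (329 nt), and REG1, the targeting subunit through which glucose repression acts (318 nt). Protein kinases had 14 of 36 (38.9%, 24.8 to 55.1%), led by KNS1, a LAMMER kinase (457 nt), and HOG1, the MAP kinase of osmotic stress (323 nt). PBS2, the kinase that activates HOG1, had 193 nt. SNF1, the kinase of glucose derepression, had 251 nt, so that this kinase and REG1 of the opposing phosphatase were both members.

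RNA-binding regulators had 18 members of 45 (40%, 27.0 to 54.5%). PUF4 (381 nt) and PUF3 (272 nt) bind 3' UTRs, HRP1 (360 nt) takes part in cleavage and polyadenylation, and NGR1 (350 nt) promotes decay of target mRNAs. The decay machinery itself was represented by the 5' exonuclease XRN1 (333 nt), the helicase DHH1 (277 nt) and LSM1 (158 nt). Ubiquitin enzymes had 13 of 38 (34.2%, 21.2 to 50.1%), with BRE5 and RSP5 the longest. DNA-binding transcription factors had 7 of 33 (21.2%, 10.7 to 37.8%), an interval that includes the share of all mRNAs. Those named by length were GCN4 and DOT6, a repressor of ribosome synthesis genes (461 nt).

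Lists of cell surface genes had lower shares than those of kinases and phosphatases, with intervals that overlap. Cell wall and GPI-anchored proteins had 19 members of 62 (30.6%, 20.6 to 43.0%), led by SIM1 and by MID2, a sensor of wall stress (423 nt). Plasma membrane transporters had 16 of 58 (27.6%, 17.8 to 40.2%), led by the drug exporter SNQ2 (317 nt) and the polyamine exporter TPO3 (315 nt), and including PMA1, the proton pump that sets the membrane potential (237 nt). Small GTPases and their regulators had 10 of 45 (22.2%, 12.5 to 36.3%), led by ARF2 of vesicle traffic (372 nt) and GSP2 of nuclear transport (352 nt). Lipid synthesis had 13 of 76 (17.1%, 10.3 to 27.1%), led by CDS1 and IPT1. The intervals of the GTPase and lipid lists include the share of all mRNAs.

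The basic metabolic and ribosomal lists stood at or under the share of all mRNAs at the limit of 150 nt, and this turned with other limits. Amino acid and nucleotide synthesis stood above it with limits of 100 and 200 nt, as did glycolysis and cytosolic ribosomal proteins with 200 nt. Amino acid and nucleotide synthesis had 14 members of 108 (13.0%, 7.88 to 20.6%), led by URA2 and by IMD4, an IMP dehydrogenase (309 nt). Glycolysis and fermentation had 3 of 25 (12%, 4.17 to 30%), namely ADH4 (267 nt), PFK1 (224 nt) and PFK27 (206 nt). Of 41 mitochondrial ribosomal protein genes 0 were members, for which the Wilson interval ends at 8.57%, and their median was 37 nt. Cytosolic ribosomal proteins had 15 of 133 (11.3%, 6.95 to 17.8%) although their median was 27 nt, the lowest of the 15 lists. Of those 15 members 11 held both splice motifs, and without genes holding them the share was 3.28%. On the list of mRNAs with known upstream reading frames, 4 of 12 were members, and these were GCN4, CLN3, IMD4 and HOL1.

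**Figure D2:**
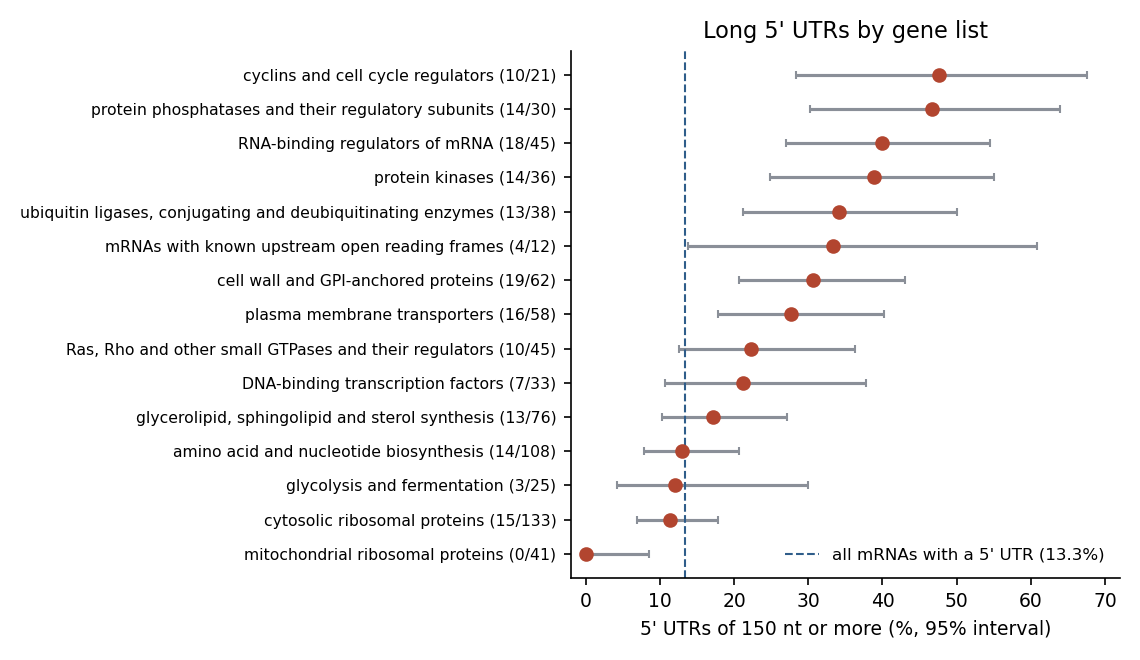
Share of each list's mRNAs with a listed 5' UTR of 150 nt or more (x axis, percent), with the 95% Wilson interval as a bar and the members and measured genes of each list in parentheses. The dashed line marks the 13.3% of all mRNAs, and the 8 lists from cyclins to plasma membrane transporters have their whole interval above it.

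Cell compartments, read from the cellular component terms of the reference annotation, were chosen after the members were known. P-bodies, the cytoplasmic granules where mRNAs are decapped and stored, had 14 members of 31 (45.2%, 29.2 to 62.2%). Among them were BRE5 (712 nt), MKT1 (250 nt) and SSD1, which binds mRNAs of wall proteins (199 nt). Many of them, such as BRE5, XRN1 and DHH1, were already counted on the gene lists above. Cytoplasmic stress granules had a lower share, with 18 members of 79 (22.8%, 14.9 to 33.2%). The bud tip had 16 of 43 (37.2%), the bud neck 26 of 77 (33.8%) and the plasma membrane 51 of 189 (27.0%). The cell wall term had 8 of 53 (15.1%, 7.85 to 27.1%), so the higher share of the cell wall list above was not seen with it. The cytoplasm (15.2%), endoplasmic reticulum (14.4%), nucleus (13.2%) and mitochondrion (11.8%) stood near the 13.3% of all mRNAs. Several members recurred in both bud compartments: FKS1, a catalytic subunit of glucan synthase (258 nt), its activator RHO1 (216 nt), the myosin MYO2 (192 nt) and the kinase CBK1 (173 nt). Across the 15 gene lists 161 members were on at least 1 list and 195 on none.

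Long 5' UTRs belonged to long coding regions. The median member's coding region was 1453.5 nt (95% interval of the median 1353 to 1572 nt, n = 356), against 1029 nt (990 to 1056 nt, n = 2323) in the others. Coding regions over 3000 nt were found in 40 members (11.2%, 8.36 to 14.9%) and in 95 others (4.09%, 3.36 to 4.97%), with 5.04% over all. Those under 600 nt were found in 38 members (10.7%, 7.88 to 14.3%) and in 529 others (22.8%, 21.1 to 24.5%), with 21.2% over all. In both cases the intervals did not overlap. The largest were ACC1 (6702 nt), URA2 (6645 nt) and FAS1, a subunit of fatty acid synthase (6156 nt).

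No further rise was seen above 150 to 199 nt. By 5' UTR length, the median coding region was 825 nt under 25 nt, 936 nt at 25 to 49 nt, 1168.5 nt at 50 to 99 nt, 1209 nt from 100 nt to under 150 nt and 1557 nt at 150 to 199 nt. It was 1461 nt at 200 to 299 nt and 1336.5 nt (921 to 1584 nt) at 300 nt or more. Spearman's rho between the lengths was 0.22 among the 2323 others and -0.07 among the 356 members, or 0.04 among the 334 members with usable sequence and no splice motifs. These are descriptions over genes of the same annotation.

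A few members were short genes. RPS29A and RPS29B, a ribosomal protein pair with 171 nt of coding region each, had 5' UTRs of 494 and 445 nt, and RPL29 had 334 nt before 180 nt. In 13 members, and in 0 of the others, the 5' UTR was longer than the coding region, and 10 of these 13 held both splice motifs. The others have under 150 nt by rule and a lower coding quartile of 631.5 nt, so their 0 was largely set in advance. The shortest coding region, 78 nt, was that of YOR302W, which is the arginine attenuator peptide, the upstream reading frame of CPA1. The annotation lists it as a transcript of its own with a 5' UTR of 154 nt, ending 18 nt before the listed transcript of CPA1, a subunit of carbamoyl phosphate synthetase for which no 5' UTR is listed. From the listed 5' end of YOR302W to the start codon of CPA1 measured 288 nt.

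The 3' UTRs of members were somewhat longer too, though not where the 5' UTR measured 300 nt or more. The members' median was 126 nt (119 to 135 nt, n = 355, since SIP1 has no listed 3' UTR), against 104 nt (101 to 107 nt, n = 2319). By 5' UTR length it was 129 nt (119 to 143 nt) at 150 to 199 nt and 136 nt (120 to 145 nt) at 200 to 299 nt. At 300 nt or more it was 109 nt (80 to 126 nt, n = 76), an interval that includes the median of the others. Within the members, 5' and 3' UTR lengths were barely related (rho -0.10, n = 355). COX15, needed for heme A synthesis, combined 212 nt with a 3' UTR of 1038 nt, WHI3 combined 350 nt with 666 nt, and YNL190W combined 270 nt with 543 nt. At the other extreme MNT3, a mannosyltransferase, had a 3' UTR of 3 nt, CLN3 of 11 nt, SPE1, the ornithine decarboxylase, of 13 nt, and BRE5 of 14 nt behind its 712 nt 5' UTR. Introns in the coding region were found in 9 members (2.53%, 1.34 to 4.73%) and in 179 others (7.71%, 6.69 to 8.86%), with 7.02% over all. The 9 were RPS22B, IMD4, LSM7, HNT1, UBC4, RPS0B, ECM33, VPS29 and SRB2.

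Members had more room upstream. In R64, the distance from the start codon to the nearest annotated gene upstream had a median of 608 nt (559 to 643 nt, n = 356) for members and 410.5 nt (392 to 429 nt, n = 2322) for the others. It was larger with either orientation. Where the neighbour was transcribed in the same direction (tandem), the medians were 494.5 nt and 365 nt, and where it was transcribed away (divergent), 714 nt and 484 nt. What remained beyond the listed 5' end was alike, at 360 nt (326 to 393 nt) for members and 349.5 nt (336 to 368 nt) for the others, whose intervals overlap. Members thus filled a median of 38.5% of their upstream space and the others 10.5%, a share in which the length that chose the members is the numerator.

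**Figure D3:**
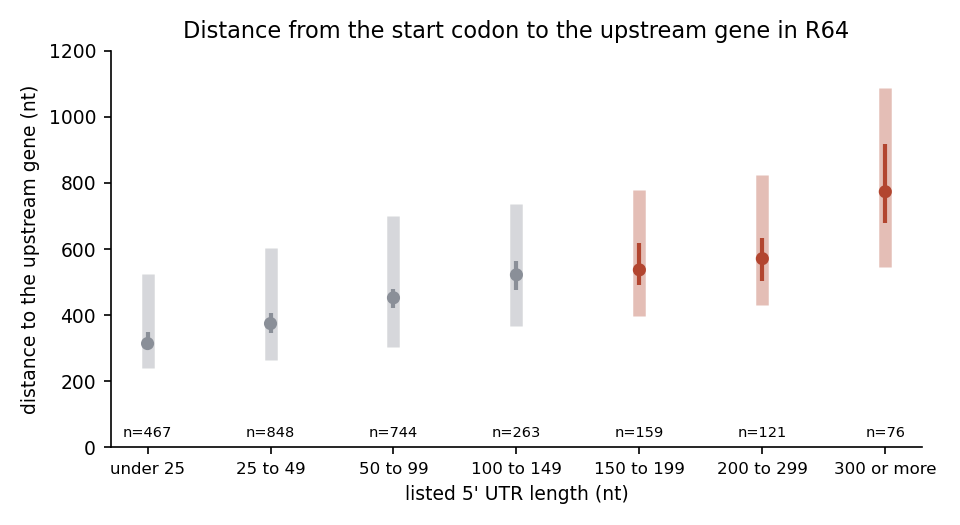
Distance from the start codon to the nearest upstream gene in R64 (y axis, nt) by listed 5' UTR length (x axis, nt), with the median as a point, its 95% interval as a dark line and the quartiles as a pale bar. Members (red) continue the climb of the other mRNAs (grey), from 314 nt for 5' UTRs under 25 nt to 537, 571 and 773.5 nt in the last 3 length classes.

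Orientation itself did not set the members apart. A divergent neighbour in R64 was found for 172 members (48.3%, 43.2 to 53.5%) and 1241 others (53.4%, 51.4 to 55.5%), with 52.8% over all, and the intervals overlap. With neighbours taken from the deposited annotation, which lists fewer genes, the order turned, with 55.1% for members and 51.5% for the others. Shares with a long 5' UTR on the other side of the space also had overlapping intervals. The divergent partner's 5' UTR was also 150 nt or more for 18 of 102 members (17.6%, 11.5 to 26.2%) and for 84 of 584 others (14.4%, 11.8 to 17.5%). For tandem upstream genes both shares were 14.9%.

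Some long 5' UTRs ran into their neighbours. In the deposited annotation 17 members (4.78%, 3.00 to 7.51%) overlapped another transcript, against 19 others (0.818%, 0.524 to 1.27%), with 1.34% over all. A longer region has more room to overlap, so length is part of this count. The overlap was greatest for NIF3 (340 nt 5' UTR), of which 259 nt lay over the coding region of BOL2 on the opposite strand. CDS1 came next among protein-coding neighbours, with 200 nt over the transcript of RKM3, a ribosomal lysine methyltransferase, and 136 nt over its coding region. That was also the deepest overlap of a divergent pair whose neighbour lists its own 5' UTR, followed by MID1 with RFC3 (38 nt) and PRS2 with UBC6 (36 nt), in each of which both genes were members.

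The whole 201 nt 5' UTR of SER3, an enzyme of serine synthesis, lay inside SRG1 on the same strand. SRG1 is the non-coding RNA whose transcription across the SER3 promoter is known to repress the gene. TRS31 overlapped the small nucleolar RNA snR13 by 104 nt, and KAE1 overlapped a tRNA for aspartate, tD-GUC-K, by 72 nt, both on the same strand. EDC2 (170 nt over YER034W), KTI12 (159 nt over ABF1) and YCK2 (114 nt over GIM3) overlapped a neighbour's transcript without reaching its coding region.

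ATGs were common inside the long 5' UTRs. Sequence could be read for 351 members, those whose coding length in R64 equals the deposited length, which leaves out BUD14, GAG1, MMT2, ECM33 and SIM1. An ATG was found in 160 of the 351 (45.6%, 40.4 to 50.8%) and in 246 of 2308 others (10.7%, 9.46 to 12%), with 15.3% over all. A complete upstream frame, with its stop before the main start codon, was found in 42.5% of members (37.4 to 47.7%) and in 161 others (6.98%, 6.01 to 8.09%), with 11.7% over all. These counts grow with length. Per 100 nt, members held 0.63 ATGs, 5' UTRs from 50 nt to under 150 nt held 0.28, and members without splice motifs held 0.50. These densities are over whole 5' UTRs, which in members reach farther from the start codon. At equal distance, members without splice motifs and 5' UTRs from 50 nt to under 150 nt were close. They held 0.17 and 0.13 ATGs per 100 positions at 1 to 50 nt, and 0.41 and 0.46 at 51 to 100 nt.

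Each of the members' 539 ATGs was counted as a frame of its own, also where ATGs in the same frame share a stop. By this count 497 were complete frames, 33 overlap the main coding region out of frame and 9 run into it in frame. Distinct frames are therefore fewer, and 349 of the complete ones lay in members without splice motifs. The complete frames, nested ones included, were short, with a median of 10 codons (quartiles 4 and 20), and the longest had 93 codons, in DOT6. An A at position -3, the base most often found before yeast start codons, preceded 30.9% of the upstream ATGs (27.1 to 34.9%, n = 525) and 67.5% of the members' main start codons (62.5 to 72.2%, n = 351). Over all mRNAs the shares were 27.0% and 68.0%, and A made up 32.9% of the members' bases. The most ATGs were in RPL24A (19), VBA2 (14) and RPS8B (11), followed by BMH2, RPS29B and RPL32 (10 each). All of these apart from VBA2 held the splice motifs. CDS1 had 9, of which 8 opened complete frames, IPT1 had 6 and ACC1 had 1.

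In 7 members the listed 5' UTR held an ATG in frame with the coding region and with no stop between (1.99%, 0.969 to 4.06%), against 8 others (0.347%) and 0.564% over all. Reading from it would add 83 codons to ADH4, an alcohol dehydrogenase, 48 to SIP1, a subunit of the Snf1 kinase, 46 to MDH2, the cytosolic malate dehydrogenase, 38 to URH1, a nucleosidase, and 35 to KAE1. ITR2, an inositol transporter, would gain 3 codons and SUC2, the invertase, 1. The frames were read from R64 sequence, and whether such products are made was not measured here.

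Many long 5' UTRs had no ATG at all. That was so for 191 of the 351 members, and for 24 of the 75 with sequence that measured 300 nt or more. The longest were those of BRE5 (712 nt), RSP5 (508 nt), PPH21 (485 nt), CLG1 (464 nt), MID2 (423 nt) and PUF4 (381 nt). These genes were picked out after their values were seen.

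ATG was scarce for its letters, and increasingly so towards the start codon. In the members without splice motifs, each of the other 5 orders of its 3 letters occurred 1.27 to 1.57 times per 100 nt, against 0.50 for ATG. By distance, ATG occurred 0.17 times per 100 positions in the 50 nt next to the start codon, 0.41 at 51 to 100 nt, 0.49 at 101 to 150 nt, 0.63 at 151 to 200 nt, 0.86 at 201 to 250 nt, 0.74 at 251 to 300 nt and 1.02 at 301 to 350 nt. The mean of the other orders stayed between 1.34 and 1.56 over the same bins. Beyond the listed 5' ends of these genes ATG occurred 1.31 to 1.71 times per 100 positions and the other orders 1.30 to 1.44. The farther bins inside the 5' UTR rest on fewer genes, with 32 reaching through 350 nt.

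**Figure D4:**
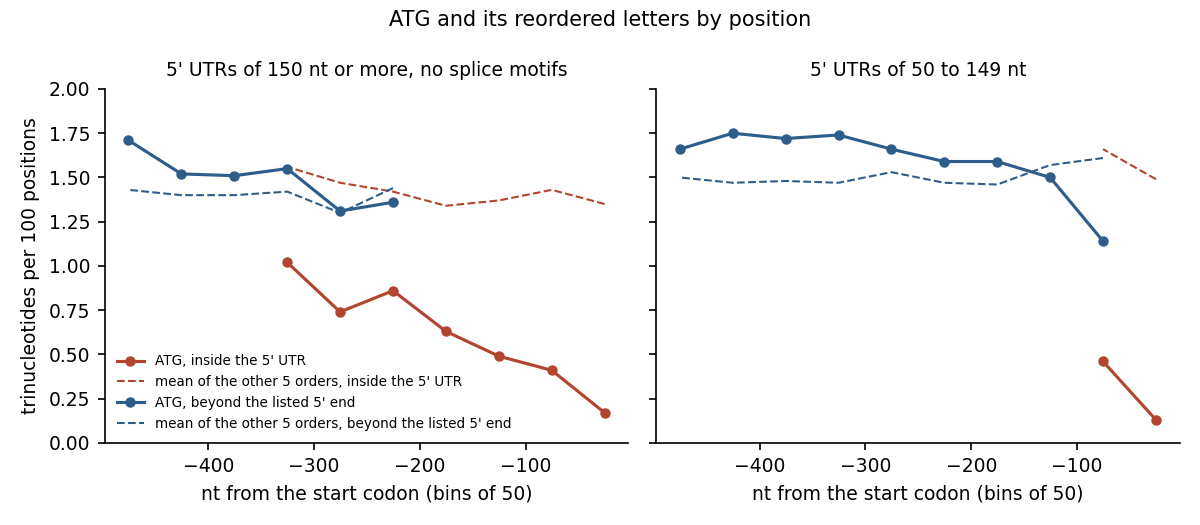
ATG (solid) and the mean of the other 5 orders of its letters (dashed) per 100 positions (y axis) in bins of 50 nt by distance from the start codon (x axis, nt), inside the listed 5' UTR (red) and beyond its 5' end (blue), for members without splice motifs (left) and for 5' UTRs from 50 nt to under 150 nt (right). Inside the members ATG climbs from 0.17 beside the start codon to 1.02 at 301 to 350 nt, below the dashed line in every bin shown, and beyond their listed ends it is near or above it.

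The share with an ATG close to the start codon was also compared with that of shorter 5' UTRs. An ATG in the last 50 nt was found in 32 members (9.12%, 6.53 to 12.6%) and in 54 of 1000 mRNAs with 50 nt to under 150 nt (5.4%, 4.16 to 6.98%), with 12.7% over all mRNAs, where the window often lies outside the 5' UTR. Without the splice motif genes the members' share was 7.78% (5.37 to 11.2%), and the intervals overlap in both cases. With a window of 100 nt the order turned, with 20.5% for members (16.6 to 25%) and 23.8% for 5' UTRs from 100 nt to under 150 nt (19.0 to 29.3%).

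Over whole 5' UTRs, the members also differed in base composition. They held 32.9% A and 33.4% T, read as DNA, where the others held 38.4% A and 27.3% T, and C and G differed by less than 1 percentage point (18.0% C in each, 15.7% against 16.2% G). 5' UTRs from 50 nt to under 150 nt stood between, with 36.9% A and 29.2% T. Members reach farther from the start codon, and composition at equal distance was not compared. The 50 nt before the start codon had a median predicted folding energy of -5.42 kcal/mol (-5.97 to -4.94, n = 351) in members and -6.33 kcal/mol (-6.60 to -6.05, n = 1000) in 5' UTRs from 50 nt to under 150 nt. The 50 nt at the listed 5' end gave -7.77 kcal/mol (-8.31 to -7.30) and -7.54 kcal/mol (-7.88 to -7.28), whose intervals overlap. These energies were computed from sequence at 23 °C and are not the cleavage measurements of the series.

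Both splice motifs, GTATGT followed by TACTAAC on the coding strand, lay inside the 5' UTR of 17 members (4.84%, 3.05 to 7.62%) and of 0 of 2308 others (upper bound 0.166%), with 0.639% over all. A longer region has more room for them, so a window of equal size was read as well. In the 1000 nt before the start codon they occurred in 20 members (5.70%, 3.72 to 8.64%) and 17 others (0.737%, 0.460 to 1.18%), with 1.39% over all. A motif span also adds to the listed length that chose the members, and the window does not remove this. Of the 334 members without the motifs in the 5' UTR, 3 held them in the window (0.898%, 0.306 to 2.61%). That interval includes the share of the others. The rest of the 20 were the 17 members with both motifs in the 5' UTR. The 17 were BMH2, URA2, RPS22B, RPS29A, RPL24A, COX4, RPS29B, NHP6B, RPL24B, RPS26A, ARF2, RPS8B, RPS25A, RPS26B, SUN4, RPL32 and RPS8A, of which 11 encode ribosomal proteins.

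These 17 differed from the rest of the members in other ways. Their median 5' UTR was 420 nt and their median coding region 468 nt, against 1509 nt in the 334 without the motifs. The donor stood within 1 nt of the listed 5' end in BMH2, RPS22B, RPS29A, ARF2, RPS8B, RPS26B, SUN4, RPL32 and RPS8A. In the rest of the 17 it lay 19 nt (RPS26A) to 239 nt (URA2) inside. Where the donor stood at the listed end, sequence upstream of it is outside the lengths given here. From the donor motif to the CAG or TAG next after the branch motif, the span left a median of 34 nt of the listed 5' UTR (range 1 to 304 nt). In RPL32 and RPS26B 1 nt was left, in RPS29A 6 nt and in BMH2 84 nt. More was left in COX4 (142 nt of 484 nt) and in URA2 (304 nt of 624 nt), whose donors lay 354 and 385 nt before the start codon. ATGs were dense, at 1.95 per 100 nt, and the other 5 orders of the same letters occurred 1.44 to 2.15 times. A motif match is a description of the sequence, and splicing was not measured here.

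Closely related genes were compared next. Among 201 pairs of reciprocal best matching proteins with a listed 5' UTR for both genes, 57 held a member, and in 11 of these (19.3%) both genes were members. Where the motifs were absent from the pair, it was 6 of 49 (12.2%). By member, 22 of 68 (32.4%) had a partner that was also a member, where members made up 16.9% of the 402 genes in pairs. The shorter 5' UTR of the 57 pairs had a median of 76 nt, and the median difference within a pair was 122 nt. That difference is in part set by the choice of pairs with a member, and over all 201 pairs it was 35 nt. BMH2 (827 nt) and BMH1 (40 nt) encode proteins 97.5% identical, and RPS22B (564 nt) and RPS22A (12 nt) proteins 99.2% identical. ARF2 and ARF1 had 372 and 37 nt. In these 3 pairs the longer 5' UTR held the splice motifs.

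Large differences also occurred without the motifs. ODC2 and ODC1, mitochondrial carriers of oxodicarboxylates, had 442 and 16 nt, and GSP2 and GSP1, the yeast Ran GTPases, had 352 and 42 nt. PPH21 and PPH22 had 485 and 161 nt, so both were members in spite of a difference of 324 nt. Among pairs of members without the motifs the most equal were TCB2 and TCB1, tricalbins that tether the endoplasmic reticulum to the plasma membrane (187 and 181 nt), CLN1 and CLN2 (194 and 183 nt), and PSR1 and PSR2, plasma membrane phosphatases (243 and 206 nt). KRE6 and SKN1, glucan synthesis proteins, had 284 and 162 nt, and YRO2 and MRH1 had 315 and 239 nt. In 4 ribosomal protein pairs, RPL24A and RPL24B, RPS8B and RPS8A, RPS29A and RPS29B, and RPS26A and RPS26B, both 5' UTRs were long and both held the motifs.

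**Figure D5:**
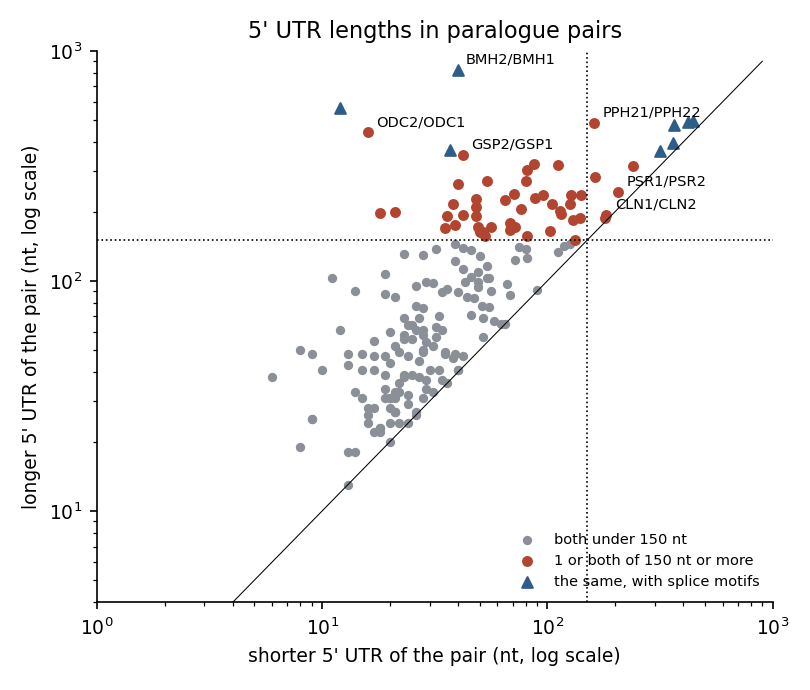
Longer against shorter listed 5' UTR (nt, log scales) of each of 201 paralogue pairs, with pairs holding a member in red, or as blue triangles where a 5' UTR of the pair holds the splice motifs, and dotted lines at 150 nt. Most coloured points lie left of the vertical line, since 46 of the 57 pairs have a partner under 150 nt.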

How the data were processed

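Polyadenylated RNA was measured in 4 RNase V1 and 3 nuclease S1 libraries, grouped by the nuclease in their labels. The data used were genome positions, counted from 1, in an annotation that the authors deposited. Per the design text, each entry names a gene, its chromosome and limits, and the kind of feature. It holds no values per library, so its genes, not the libraries, were described, and depth gives no precision here. Not given in the sources used here are the aligner, the build of the positions and the way UTR ends were set.

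Lengths were end minus start plus 1, summed per gene. Each 5' UTR was 1 entry. Introns were gaps of at least 10 nt between exons. R64 (RefSeq) gave symbols for all 356 members, upstream neighbours, cellular component terms and sequence, always at R64's own coordinates, and positions of different builds were not mixed. Sequence was read back from the R64 start codon over the listed length where R64's coding length equalled the deposited length, for 351 members and 2659 genes in all. Where a member had the same neighbour in both annotations (186 members), the start-to-gene distance was identical for 176.

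Upstream frames ran from each ATG to the next stop in frame, so that ATGs in the same frame could share a stop. Splice motifs were GTATGT and then TACTAAC on the coding strand, with over 60 nt from donor to branch end and 1 nt of slack at the listed end. Paralogues were reciprocal best BLASTP matches (BLAST+ 2.17.0, identity of 40% or more over 70% of both proteins, translated from R64). Folding energies came from ViennaRNA 2.7.2 at 23 °C. Tables used Python 3.11.15, pandas 2.3.3 and scipy 1.17.1. Intervals are 95% Wilson intervals for shares and order-statistic intervals for medians, and the calculations were tested on simulated data. No hypothesis test was run.

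Members and gene lists were chosen with earlier results of these data known. The named genes are the 15 longest 5' UTRs, mRNAs within 2 nt of the limit, the 2 longest of each list, extremes of coding region, 3' UTR, overlap, ATG number and paralogue difference, motif genes and mRNAs with known upstream frames. Other genes named within the lists, compartments, overlaps and pairs, and the members without ATG, were chosen after their values were seen. Alternatives were limits of 100 and 200 nt, other neighbours, overlaps, windows, donors and identity, and leaving out intron or motif genes. The motif span taken out of lengths, and gene lists and pairs without motif genes, were added after seeing the data.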

Additional observations from a re-analysis of the deposited data

How the results depend on the processing

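No paired analysis was possible because the values come from an annotation without library values and no test was run. A limit of 100 nt gave 619 members and one of 200 nt gave 197. At 100 nt the median coding region was 1347 nt. The share with a complete upstream frame was 35.6% at 100 nt and 50.3% at 200 nt. With neighbours of the deposited annotation, which lists fewer genes, the divergent share turned to 55.1% (others 51.5%) and the median distance rose to 1183 nt (others 997.5 nt). Overlaps of at least 50 nt were found for 2.53% of members (others 0.387%, all 0.672%). With GTACGT also read as a donor, 18 members held both splice motifs (5.13%, others 0.0433%, all 0.715%), RPL29 among them. An ATG stood in the last 30 nt of 4.84% (3.77% for 5' UTRs from 30 nt to under 150 nt, 4.78% over all) and, with the order turned, in the last 100 nt of 20.5% (23.8% from 100 nt to under 150 nt). Against the share of all mRNAs at the same limit, amino acid and nucleotide synthesis turned to above it at 100 nt (27.8%) and 200 nt (8.33%), and at 200 nt so did glycolysis (12%) and cytosolic ribosomal proteins (10.5%). Taking the motif span out of the lengths left 340 members. Each list share was also set against its interval at 150 nt under each alternative (limits of 100 and 200 nt, no motif genes). Of the other such comparisons 12 fell outside the interval and 29 did not. The share of all mRNAs itself changes with the limit, to 23.1% at 100 nt and 7.35% at 200 nt, so these counts do not measure stability. Causes were not tested. Neither depth nor how the UTR ends were set is known, so no length has an error.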
